A study of Homo sapiens with 17 samples.

Results

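FZD4, PRSS23 and RP11-736K20.5 are 3 genes of 1 locus on chromosome 11 that were lower after knockdown of MED25 or of ETV4 by short hairpin RNAs (shRNAs) in PC3, an established cell line from human prostate cancer. They were chosen by symbol, from the measured values that put them in the authors' deposited tables, and are 3 of 1400 genes that the 4 tables hold between them. Their decreases are therefore given as a description, with no test. In the tables for shRNA A of both targets all 3 genes were lower, in the order FZD4, RP11-736K20.5, PRSS23. With shRNA B, RP11-736K20.5 alone of the 3 was listed, and for ETV4 only.

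FZD4 encodes frizzled 4, a seven-pass membrane receptor for Wnt ligands and for norrin. When a Wnt ligand joins a frizzled receptor to the co-receptor LRP5 or LRP6, beta-catenin escapes degradation and acts with TCF/LEF factors in the nucleus, while other branches of the pathway set cell polarity and movement. PRSS23 encodes a secreted serine protease of the trypsin-like family, whose substrates are poorly known. RP11-736K20.5 is a clone-named long noncoding gene, called PRSS23-AS1 in current gene tables. ETV4 is an ETS-family transcription factor, which binds DNA at sites with a GGAA core, and MED25 is a subunit of Mediator, the complex that links transcription factors to RNA polymerase II.

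The knockdown groups were PC3 cells with lentiviral MED25 shRNA A or B and PC3 cells with retroviral ETV4 shRNA A or B, with 3 libraries each. The controls were 3 lentiviral libraries, with luciferase shRNA, and 2 retroviral libraries, with a control shRNA, while the series design text calls the control an empty vector. All 17 libraries were made 7 days after infection of early passage cells, and the labels do not say whether replicates were separate cultures. Both shRNAs of a target were compared with the same control libraries, whereas the MED25 and ETV4 tables share none. The files used were the authors' 4 tables of comparisons, which hold 1 log2 ratio and 1 score for a gene and no value for a library, so no spread between replicates, depth or marker check of the cell line could be computed. Each table listed only lower genes, the smallest decrease being 1.5-fold, and a gene that is not listed cannot be called unchanged. Per the authors' deposited tables MED25 itself was at 51.6% of control under its shRNA A and 30.5% under its shRNA B, and ETV4 itself at 26.1% and 15.8%. The direction of the ratios rests on the header numbers shared by the tables of a target and on the sign of the targets.

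The arrangement of the genes was read from GENCODE release 29, on GRCh38, a later build than the hg19 of the submitters' processing notes. Lengths, distances and overlaps are therefore those of GRCh38 gene models. FZD4 (ENSG00000174804) lies on the minus strand and PRSS23 (ENSG00000150687) on the plus strand, and the gene bodies overlap by 7232 bases at their 3′ ends. The overlap includes exons: 1399 bases are exonic in both, or 18.9% of the 7383 exonic bases of FZD4 and 11.9% of the 11725 of PRSS23. Not all PRSS23 models reach this far. Of 9 annotated PRSS23 transcripts, 4 share exonic bases with FZD4 and 5 share none. The 2-exon coding transcript PRSS23-201, 4015 bases long, ends 134445 bases short of the near end of FZD4.

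RP11-736K20.5 (ENSG00000255471) lies on the minus strand wholly inside the PRSS23 gene body, over 32824 bases, but shares 0 exonic bases with PRSS23 and 0 with FZD4. It lies 20641 bases from FZD4, on the same strand. Another gene of the locus, RP11-736K20.6 (ENSG00000246523), now called FZD4-DT, is a noncoding gene on the plus strand. Its start is separated from that of FZD4 by 227 bases, so the pair diverges from a common stretch. The label of an overlapping locus thus holds in exons for FZD4 and PRSS23, and for the noncoding gene in the PRSS23 gene body alone.

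**Figure D1:**
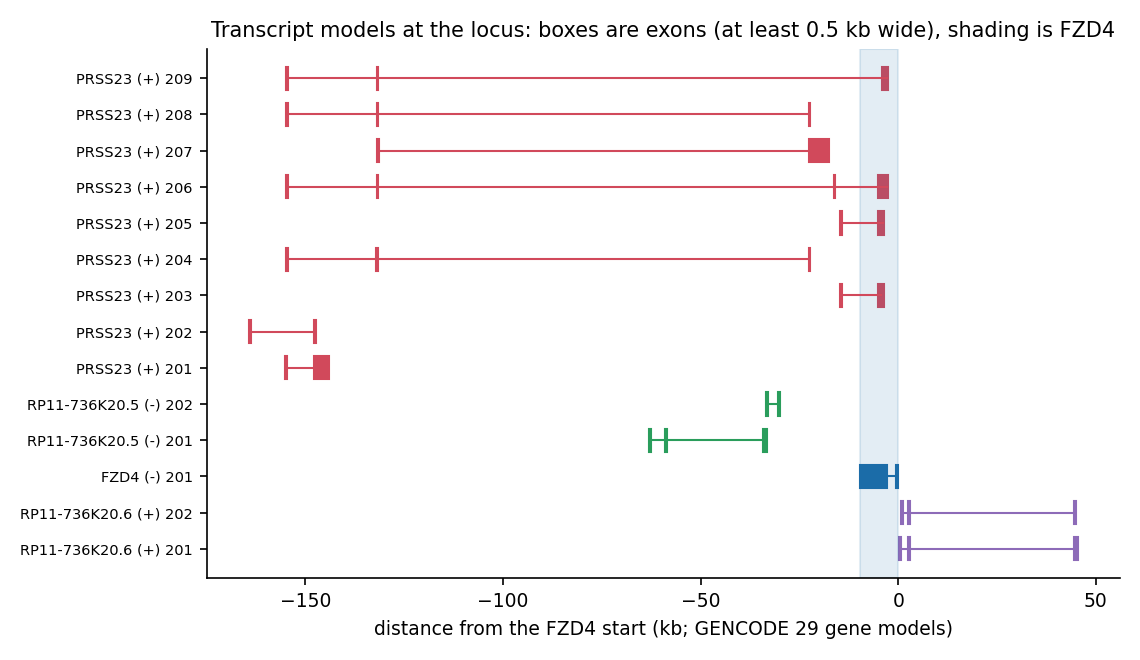
Annotated transcripts of the 4 genes, plotted by distance in kb from the FZD4 start, with boxes for exons (drawn at least 0.5 kb wide), lines for introns and the strand in brackets. The exons of 4 PRSS23 models fall in the shaded FZD4 gene, the 2 RP11-736K20.5 models lie between PRSS23 exons, and RP11-736K20.6 leads away from the FZD4 start.

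Because ETS factors such as ETV4 read the letters GGAA, start-site sequences are printed as a description. They are RefSeq sequences of GRCh38.p14, 5′ to 3′ on the strand of the gene, in lower case with each GGAA, or TTCC for a match on the other strand, in capitals. The first is the stretch between the starts of FZD4 and RP11-736K20.6 (chr11:86955396-86955618, minus strand, 223 bases), which holds 0 matches and 32 CpG dinucleotides.
FZD4: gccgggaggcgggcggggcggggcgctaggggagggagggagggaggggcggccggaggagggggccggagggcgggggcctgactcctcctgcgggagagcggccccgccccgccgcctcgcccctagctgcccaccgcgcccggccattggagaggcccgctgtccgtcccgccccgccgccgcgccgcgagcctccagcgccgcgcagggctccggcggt

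The second is the window around the RefSeq start of PRSS23-AS1, the gene of RP11-736K20.5 (chr11:86938436-86938735, minus strand, 300 bases, from 250 before to 50 after the start), with 7 matches. The RefSeq gene starts upstream of the GENCODE models, so this window lies outside the GENCODE gene body of RP11-736K20.5 described above. Which start PC3 cells use was not tested.
PRSS23-AS1: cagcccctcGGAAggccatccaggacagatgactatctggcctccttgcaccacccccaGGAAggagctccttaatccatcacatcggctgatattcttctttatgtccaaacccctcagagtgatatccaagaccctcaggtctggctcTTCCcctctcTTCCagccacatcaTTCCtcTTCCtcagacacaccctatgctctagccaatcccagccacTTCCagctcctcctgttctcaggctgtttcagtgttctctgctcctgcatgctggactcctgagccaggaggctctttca

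The third lies before the upstream one of the RefSeq starts of PRSS23 (chr11:86790821-86791058, plus strand, 238 bases), with 5 matches. The downstream start falls in an annotated exon, and its sequence is not printed.
PRSS23: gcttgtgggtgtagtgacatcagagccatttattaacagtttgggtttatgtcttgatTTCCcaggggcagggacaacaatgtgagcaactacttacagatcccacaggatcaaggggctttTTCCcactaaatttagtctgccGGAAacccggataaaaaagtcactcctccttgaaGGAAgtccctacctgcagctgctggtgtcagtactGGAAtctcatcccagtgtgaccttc

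In windows of 300 bases around each RefSeq start, counted on both strands, GGAA was found 1 time at FZD4 and 1 time at RP11-736K20.6. It was found 7 times at the RefSeq start of PRSS23-AS1, and 1 and 7 times at the downstream and upstream PRSS23 starts. The matches at FZD4 and RP11-736K20.6 are the same bases, seen in both overlapping windows. These letters are common: 95.5% of the 35116 promoters of the RefSeq table held at least 1 match, the median was 3, and 8.29% held 7 or more. The longer ETS forms CCGGAAGT and CAGGAAGT were in none of the 5 windows, against 4.14% and 3.08% of all promoters. Only exact matches were counted, and near variants, such as AAGGAAGT in the printed PRSS23 stretch, were not. The AP-1 site TGACTCA (4.95% of promoters) and the TCF/LEF core CTTTGA (12.9% of promoters) were in none of the 5 either. The GGAA core lies inside both longer ETS forms. The windows of FZD4 and RP11-736K20.6, which overlap, were 79.7% and 80.0% G and C, and the downstream PRSS23 window 79.3%, above the 97th percentile of promoters in each case (97.4, 97.7 and 97.1). The PRSS23-AS1 and upstream PRSS23 windows were 54.3% and 49.0% G and C. A match describes these letters in this window and is not a measured binding site.

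FZD4 had the largest decrease at the locus in both tables that listed it. Per the authors' deposited tables it was at −0.94 on the log2 scale under MED25 shRNA A, or 52.3% of control, and at −1.12 under ETV4 shRNA A, or 46.1% of control. It was listed with neither MED25 shRNA B nor ETV4 shRNA B. Ranked by decrease per the authors' deposited tables, FZD4 was number 236 of 786 genes under MED25 shRNA A and number 82 of 495 under ETV4 shRNA A. Ranked by the authors' score, read here as higher for a smaller adjusted p, it was number 280 and number 25. FZD4 thus stood nearer the top of the ETV4 table by either ranking.

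PRSS23 had the smallest decrease of the 3 in both tables that listed it. It was at −0.59 under MED25 shRNA A, or 66.3% of control, and at −0.65 under ETV4 shRNA A, or 63.5% of control, per the authors' deposited tables. The value under MED25 shRNA A lay 0.008 past the smallest listed change of 1.5-fold (log2 0.585), and only 28 of the 786 genes had a smaller decrease. Under ETV4 shRNA A it lay 0.069 past it, and 103 of 495 genes had a smaller one. Its scores were less marginal per the authors' deposited tables: by score PRSS23 was number 352 of 786 and number 105 of 495, against number 758 and number 392 by decrease.

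RP11-736K20.5 was the member found in most tables. The authors' deposited tables gave −0.72 under MED25 shRNA A, or 60.8% of control, −0.92 under ETV4 shRNA A, or 52.7%, and −0.70 under ETV4 shRNA B, or 61.4%. By decrease it was number 487 of 786, number 145 of 495 and number 59 of 98 per the authors' deposited tables. The ETV4 tables share their control libraries, so these 2 values are not independent. RP11-736K20.6, named because it is a listed neighbour, was per the authors' deposited table for ETV4 shRNA A alone, at −1.03, or 49.1% of control.

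**Figure D2:**
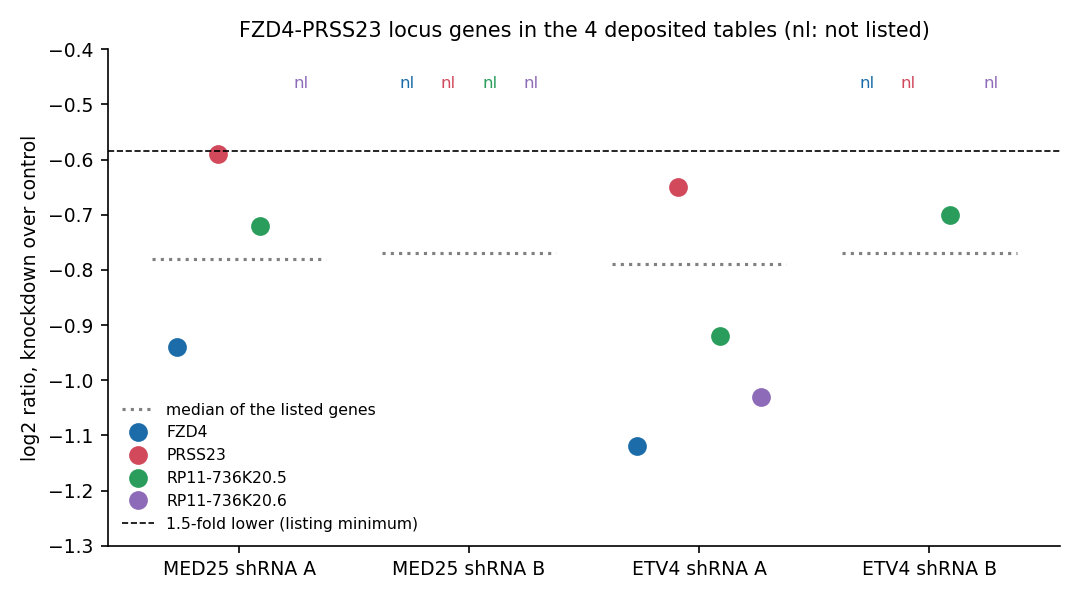
Log2 ratio of knockdown over control for the 4 locus genes in each deposited table, with the median of the table's genes dotted, the 1.5-fold listing minimum dashed and "nl" for a gene that is not listed; the tables give no error. FZD4 lies below the median in both tables that list it, at −0.94 and −1.12, and PRSS23 above it, at −0.59 and −0.65.

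None of the locus genes was among the extreme decreases of a table. Medians over all genes listed were −0.78 under MED25 shRNA A, −0.77 under MED25 shRNA B, −0.79 under ETV4 shRNA A and −0.77 under ETV4 shRNA B per the authors' deposited tables. Under MED25 shRNA A, 0 of the 3 members were lowered at least 2-fold, where 24.0% of the listed genes were. Under ETV4 shRNA A it was 1 of 3, FZD4, beside 23.2% of the listed genes. Under ETV4 shRNA B it was 0 of the 1 listed, beside 20.4%, and no member was listed under MED25 shRNA B, where 20.1% of genes were lowered this far. Since the same ratios chose the members, nothing is read from these shares.

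**Figure D3:**
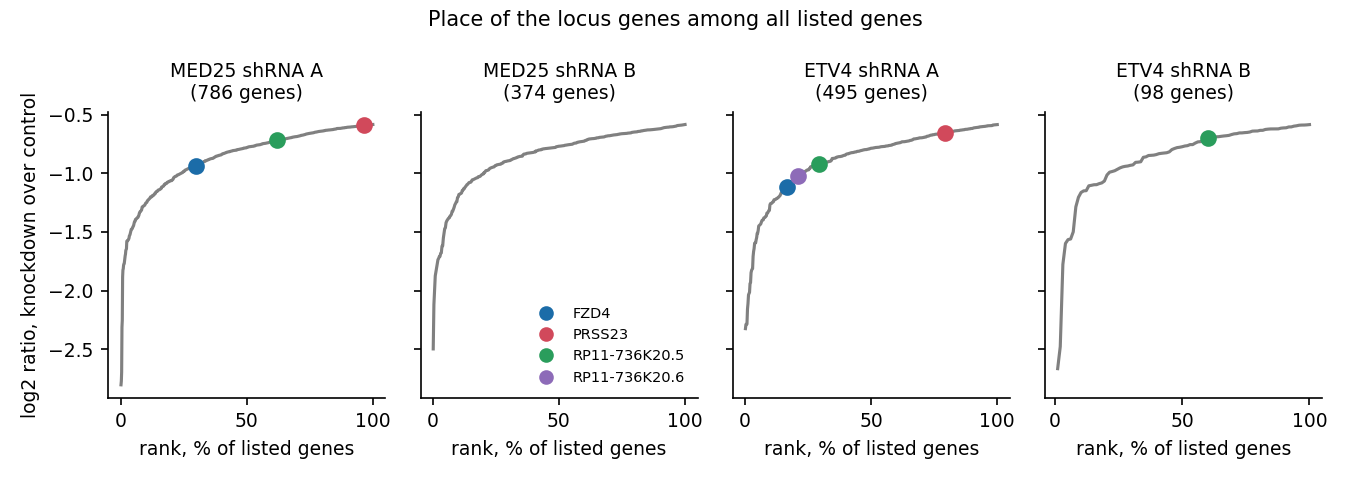
All listed genes of each table ranked from the largest to the smallest decrease (x axis, percent of the listed genes), against their log2 ratio of knockdown over control, with the locus genes as coloured points. FZD4 is number 236 of 786 genes under MED25 shRNA A and number 82 of 495 under ETV4 shRNA A, and PRSS23 lies at 96.4% and 79.2% of the way down.

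Within a table the 3 members kept 1 order. Per the authors' deposited tables FZD4 was 0.34 lower than PRSS23 on the log2 scale under MED25 shRNA A (−0.94 against −0.59) and 0.46 lower under ETV4 shRNA A (−1.12 against −0.65). RP11-736K20.5 stood between them, 0.12 and 0.27 below PRSS23. The values of RP11-736K20.6 and FZD4, the divergent pair, differed by 0.09 under ETV4 shRNA A. Whether any of these gaps exceeds the spread between libraries was not tested.

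Between the A shRNAs of MED25 and ETV4, all 3 members had the larger decrease under ETV4 shRNA A. The difference from MED25 shRNA A was 0.18 for FZD4, 0.06 for PRSS23 and 0.21 for RP11-736K20.5 on the log2 scale per the authors' deposited tables. This was the less common direction: of the 112 genes in both of these tables, 36 were lower under ETV4 shRNA A. Over the 112 genes the median difference, MED25 minus ETV4, was −0.16. Among them FZD4 was number 27 by its ETV4 shRNA A value and number 64 by its MED25 shRNA A value. With ETV4 shRNA B the order did not hold for RP11-736K20.5, at −0.70 against −0.72 under MED25 shRNA A per the authors' deposited tables. The A shRNAs also differ in vector and control libraries, and left MED25 at 51.6% and ETV4 at 26.1% of control. A difference between targets was not tested.

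FZD4 and PRSS23 belong to 77 genes listed with both A shRNAs and neither B shRNA, or 5.50% of the union. RP11-736K20.5 belongs to 10 genes listed under MED25 shRNA A and both ETV4 shRNAs alone, or 0.714%. The B tables are shorter, with 374 and 98 genes against 786 and 495. Of the 112 genes in both A tables, 77, or 68.8%, were in neither B table. Per the authors' deposited tables each target was lower under its shRNA B, MED25 at 30.5% of control against 51.6% and ETV4 at 15.8% against 26.1%. FZD4 and PRSS23 were thus listed only with the shRNA of each target that lowered it less, and the reason was not tested.

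Among the genes with the pattern of FZD4, the 5 of nearest value over the 2 tables, by the mean size of the log2 difference, were CDC42EP3 (0.041), PMAIP1 (0.065), PCK2 (0.087), MID1IP1 (0.113) and PHACTR3 (0.128). CDC42EP3, an effector of the GTPase CDC42, was at −1.01 under MED25 shRNA A and −1.10 under ETV4 shRNA A per the authors' deposited tables. PMAIP1, which encodes the pro-apoptotic protein NOXA, was at −0.82 and −1.13 per the authors' deposited tables. Nearest to PRSS23 were WDR35 (0.005), ZP3 (0.008), UHRF1BP1 (0.033), HIST1H2BJ (0.041) and DPP4 (0.041). DPP4, a membrane serine peptidase, was at −0.64 and −0.62 per the authors' deposited tables. Likeness over 2 values is a coarse measure, and 76 genes were compared for each.

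Nearest to RP11-736K20.5 over its 3 tables, of only 9 candidates, was the activin subunit gene INHBA (0.162). INHBA was at −0.93 under MED25 shRNA A, −0.78 under ETV4 shRNA A and −0.83 under ETV4 shRNA B per the authors' deposited tables. C4orf32 (0.194), CHST2 (0.297), CD55 (0.326) and CXADR (0.348) followed. FZD4 and PRSS23 were not among each other's 5 nearest genes.

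Of 52 annotated genes within 1000000 bases either side, 10 are protein coding, and of these FZD4 and PRSS23, chosen because they are listed, were in at least 1 table. The other 8 coding genes, which include EED, a Polycomb subunit, PICALM, a clathrin adaptor, and TMEM135, were in none of the tables. Of all annotated coding genes, 6.14% were in at least 1 table, so 8 unlisted neighbours say nothing about the region. The noncoding genes listed were RP11-736K20.5 and RP11-736K20.6.

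Overlap on opposite strands matters to these values because the sources used here do not say whether reads were counted by strand. Without strand, reads from the 1399 shared exonic bases of FZD4 and PRSS23 cannot be assigned to either gene, and reads from PRSS23 introns could fall in RP11-736K20.5. The values of the overlapping genes are uncertain to that extent, and the part of strand in them was not tested. RP11-736K20.6 overlaps none of the other 3 in the annotation.

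Other listed pairs on opposite strands are described here; they share the same unstated strand setting, and a pair appears when both of its genes are listed. In the table of MED25 shRNA A, 414 of 752 annotated genes overlap some gene on the other strand, and for 18 of them, 4.35%, such a partner was listed too. Under ETV4 shRNA A it was 19 of 263, or 7.22%. Of all annotated protein-coding genes, 3.44% and 2.17% were listed in these tables, but a partner may be noncoding and a gene may have several. Both counts include FZD4, PRSS23 and RP11-736K20.5, which were chosen because they are listed, so nothing is read from these shares. Each of these 2 tables held 10 pairs with both genes listed, of which 2 were at this locus, PRSS23 with FZD4 and PRSS23 with RP11-736K20.5. The median size of the difference within a pair was 0.271 under MED25 shRNA A (range 0.124 to 1.35) and 0.294 under ETV4 shRNA A (range 0.0127 to 1.27) on the log2 scale. Without the 2 pairs of this locus, the medians over the other 8 pairs were 0.271 and 0.214.

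In all, 21 pairs were listed together at least once, and 4 pairs in 2 or more tables. These 4 are the pairs of this locus, CDK14 with AC002456.2 in all 4 tables and SOCS2 with RP11-887P2.1 in 3. Of the 4 pairs, 2 share exonic bases, FZD4 with PRSS23 (1399) and SOCS2 with RP11-887P2.1 (277). Per the authors' deposited tables CDK14 and AC002456.2 differed by 0.92 to 1.35 on the log2 scale and SOCS2 and RP11-887P2.1 by 0.13 to 0.38.

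**Figure D4:**
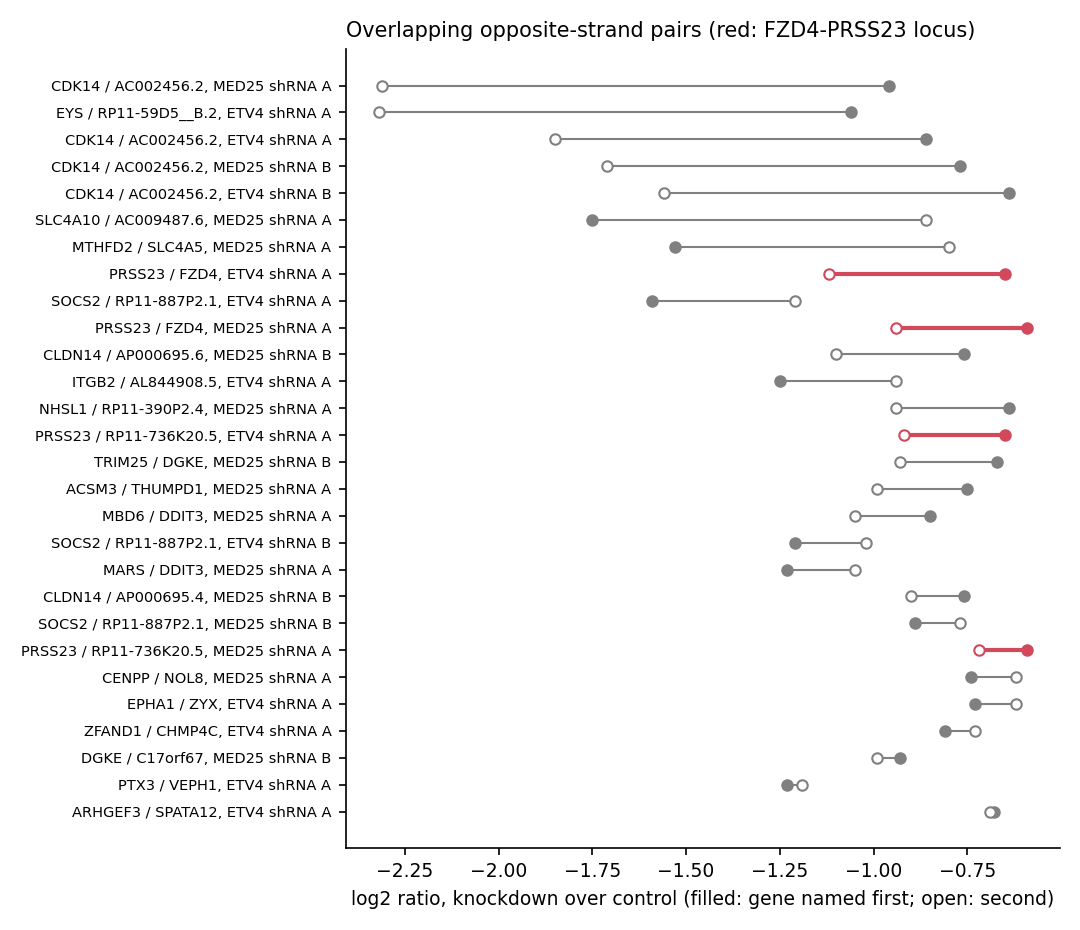
Pairs of listed genes that overlap on opposite strands, 1 row for each table that lists both, ordered by the size of their difference, with filled and open circles for the log2 ratio (x axis, knockdown over control) of the gene named first and second. The 4 rows of the FZD4-PRSS23 locus, in red, have differences of 0.12 to 0.46, while those of CDK14 with AC002456.2 reach 1.35.

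A search for divergent pairs was chosen after the values of FZD4 and RP11-736K20.6 were seen. It found 11 pairs, this one included, with starts within 1000 bases and both genes listed in the same table. Listed genes whose divergent partner is not listed were not counted, so 11 cannot be called many or few. Under ETV4 shRNA A there were 4 such pairs, including FZD4 with RP11-736K20.6. Within these 4 pairs the values differed by 0.06 to 0.22 on the log2 scale per the authors' deposited table, the largest being GBA2 with RGP1. A noncoding gene was part of 1 other of the 4, at −0.84 beside the BMP receptor gene BMPR1B at −0.78 per the authors' deposited table.

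Of 22 frizzled receptors and co-receptors, 4 were listed under MED25 shRNA A, or 18.2%, beside 3.44% of the 19951 annotated protein-coding genes. Under ETV4 shRNA A, 1 was listed, or 4.55%, beside 2.17% of coding genes. Both counts include FZD4, which was chosen because it is listed. Of the other 21 receptors, 3 were listed under MED25 shRNA A, or 14.3%, and 0 under ETV4 shRNA A. None was listed under MED25 shRNA B, where 1.61% of coding genes were, or under ETV4 shRNA B, where 0.456% were. The sources used here do not say how many genes the authors tested, so these shares count genes too low to be measured in PC3 cells. The same holds for the shares of the other lists below. All lists were chosen with earlier results of these data known, so nothing is read from the shares.

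The 3 other receptors were listed under MED25 shRNA A. FZD8, a frizzled receptor of the beta-catenin branch, was at −1.72 per the authors' deposited table, a larger decrease than that of FZD4. FZD6, which is best known in planar cell polarity, was at −0.63, and ROR1, a receptor tyrosine kinase that binds Wnt5a, at −0.74 per the authors' deposited table. A difference between tables in these genes was not tested.

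Each of the other layers of the pathway had 1 or 2 members listed in a table. Of 26 genes for Wnt ligands and their secretion, 2 were listed, both under MED25 shRNA B: WNT7A at −0.94 and WNT10B at −0.78 per the authors' deposited table. These 2 are 7.69% of the ligand list, beside 1.61% of coding genes. Of 20 antagonists and feedback inhibitors, ZNRF3, a ubiquitin ligase that removes frizzled receptors from the membrane, was at −0.67 under MED25 shRNA B per the authors' deposited table, or 5.0% of that list. Of 22 genes that carry the signal inside the cell, AXIN1, a scaffold of the complex that degrades beta-catenin, was at −0.67 under MED25 shRNA A per the authors' deposited table. PRICKLE1, a planar polarity gene, was at −1.39 under MED25 shRNA A and −0.73 under ETV4 shRNA A per the authors' deposited tables. The listed share of these signalling genes was 9.09% under MED25 shRNA A, beside 3.44% of coding genes, and 4.55% under ETV4 shRNA A, beside 2.17%. These members act in opposite senses, as ligands and receptors carry the signal and ZNRF3 and AXIN1 restrain it.

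Of 22 genes known as Wnt targets, 4 were listed under MED25 shRNA A, 4 under MED25 shRNA B, 1 under ETV4 shRNA A and 0 under ETV4 shRNA B. The share was 18.2% under each MED25 shRNA, beside 3.44% of coding genes for A and 1.61% for B, and 4.55% under ETV4 shRNA A, beside 2.17%. CCND1, which encodes cyclin D1, was at −0.94 and the Notch ligand gene JAG1 at −0.87 under MED25 shRNA A per the authors' deposited table. The transcription factor gene MYC was at −0.70 under MED25 shRNA A and −0.87 under MED25 shRNA B per the authors' deposited tables. JAG1 was also the 1 target listed under ETV4 shRNA A, at −0.70 per the authors' deposited table. Of the 22 targets, 15 were in none of the 4 tables, and a gene that is not listed cannot be called unchanged. Most genes of the target list answer to other signals too, and nothing is read from its shares.

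Of 54 secreted and membrane serine proteases, 3 were listed under MED25 shRNA A and 3 under ETV4 shRNA A, or 5.56% each, beside 3.44% and 2.17% of coding genes. PRSS23, which was chosen because it is listed, is 1 of the 3 in each table, and of the other 53 proteases 2 were listed in each, or 3.77%. DPP4 was the other protease in both A tables. PRSS12, which encodes neurotrypsin, was at −1.70 under MED25 shRNA A, and PRSS35 was at −0.96 under ETV4 shRNA A, per the authors' deposited tables. PRSS23 had the smallest decrease of the 3 proteases in the first table and the middle one in the second.

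Of 33 serine protease inhibitors, 2 were listed under MED25 shRNA A, 2 under MED25 shRNA B, 3 under ETV4 shRNA A and 1 under ETV4 shRNA B. In that order the shares were 6.06%, 6.06%, 9.09% and 3.03%, beside 3.44%, 1.61%, 2.17% and 0.456% of coding genes. SERPINB8 was at −0.64 under MED25 shRNA A and −1.11 under MED25 shRNA B, and SPINK5 at −1.40 under ETV4 shRNA A, per the authors' deposited tables.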

How the data were processed

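PC3 RNA was extracted with a Qiagen kit and sequenced by Illumina protocols, per the labels' protocols, and the submitters' processing notes name Novoalign 3.08.02 and hg19. The sources used here do not give the read counting tool, its strand setting, the annotation, the scaling or the test. The authors deposited, per the file headers, a log2 ratio and an adjusted p for each gene in 4 tables. The authors deposited this adjusted p as a score of unstated scale, above 20 throughout (lowest 20.1). Header numbers shared by the tables of a target were read as the control, with the sign of the target gene, and MED25 ratios were turned round, so that all values are knockdown over control. Depth is unknown.

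The members and gene lists were chosen with earlier results of these data known. Named genes are the members, targets, 5 nearest patterns, listed Wnt pathway genes, up to 4 leading members of other lists per table, listed neighbours and overlapping pairs in at least 2 tables. Other names were chosen after values were seen. No test was run, since the tables hold no library values. Of 1400 genes, 1350 matched GENCODE 29 by Ensembl identifier. Promoters came from RefSeq (GRCh38.p14), with a sequence for all 4 locus genes. Overlap counting was tested on simulated data. Python 3.11.15, pandas 2.3.3, numpy 2.4.6 and matplotlib 3.10.9 were used. A single list member is not reported here and was left out of its list.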

Additional observations from a re-analysis of the deposited data

How the results depend on the processing

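Log2 ratios are the authors' own and have no alternative here, and 40 of 62 recomputed counts and ranks stayed within 1.5 times the reported value. No paired analysis was possible because the tables hold no values for libraries, and leaving out a replicate was not run for the same reason. Genes at or past an absolute log2 ratio of 0.807, in place of 1, numbered 351 for MED25 shRNA A, 155 for MED25 shRNA B, 227 for ETV4 shRNA A and 44 for ETV4 shRNA B. A score of at least 50 and protein-coding genes alone left those counts within 1.5 times. At a minimum decrease of 2-fold, the Wnt lists together kept 2 members of 10 under MED25 shRNA A, 0 of 6 under MED25 shRNA B and 1 of 3, FZD4, under ETV4 shRNA A. The protease list then kept 1 of 3 under MED25 shRNA A and 0 of 3 under ETV4 shRNA A. The inhibitor list kept 0 of 2 under MED25 shRNA A and 2 of 2 under MED25 shRNA B. It kept 1 of 3 under ETV4 shRNA A and 0 of 1 under ETV4 shRNA B. Of all listed genes, 24.0% were lowered at least 2-fold under MED25 shRNA A and 20.1% under MED25 shRNA B. The share was 23.2% under ETV4 shRNA A and 20.4% under ETV4 shRNA B. Older symbols changed no list count. Pairs that overlap in annotated exons numbered 6 of 10 for MED25 shRNA A, 3 of 6 for MED25 shRNA B, 6 of 10 for ETV4 shRNA A and 1 of 2 for ETV4 shRNA B. Among genes in at least the same tables, 3 of the 5 nearest to FZD4 were retained. Where these counts moved, the alternative's own construction, a wider or narrower set of genes, changed them. Ranking the same genes by score in place of decrease took FZD4 from number 82 to 25 under ETV4 shRNA A. PRSS23 went from number 758 to 352 under MED25 shRNA A and from 392 to 105 under ETV4 shRNA A. With a score of at least 50, PRSS23 was number 490 under MED25 shRNA A and number 247 under ETV4 shRNA A by decrease. These ranks are among the fewer genes that reach that score, so they do not show a higher relative place.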
